A study of Mus musculus with 48 samples.

Results

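Arntl, Clock and Npas2 encode the activating transcription factors of the circadian clock, and their transcripts were followed in liver through 20 h in mice with a conditional deletion of Arntl, which is also called Bmal1. They were taken as the 3 rows of the count table that carry these symbols, of 22354 genes listed, and all 3 were among the 13646 genes expressed highly enough to be tested. The KO mice were C57BL/6 animals with a Bmal1 fl/fl genotype that carried Cre driven from the aP2 promoter, a driver used for adipocytes, and the WT mice were littermate controls on the same strain. All of them had been in constant darkness for 36 h, and they were killed in darkness at 0, 4, 8, 12, 16 and 20 h, aged 4 to 6 months per the design text. Each of the 48 libraries came from 1 liver, 23 of them KO and 25 WT. Every group held 4 mice except at 16 h, where the labels give 3 KO and 5 WT mice, while the design text gives 4 mice for each group. The labels do not say whether the WT littermates carried the floxed alleles.

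ARNTL pairs with CLOCK or with its paralog NPAS2, and the pairs bind E-box sequences in front of Per, Cry, Nr1d1, Nr1d2 and many metabolic genes. The PER and CRY proteins then block the pairs, which closes the main loop of the clock. In another loop the nuclear receptors REV-ERB alpha and beta, encoded by Nr1d1 and Nr1d2, repress transcription of Arntl and related receptors activate it through response elements called ROREs. In mouse liver Arntl and Npas2 are known as strongly cycling transcripts and Clock as a weakly cycling one.

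The start regions of the 3 genes are shown because their transcripts differed in how they cycled. The sequences are from RefSeq on GRCm38.p6, 5′ to 3′ on the strand of the gene, and run from 250 bases before the most upstream start to that start or to the first annotated exon. None of the motifs searched below occurs in these stretches, so no base is in capitals.
Arntl, chr7:113207215-113207464, plus strand: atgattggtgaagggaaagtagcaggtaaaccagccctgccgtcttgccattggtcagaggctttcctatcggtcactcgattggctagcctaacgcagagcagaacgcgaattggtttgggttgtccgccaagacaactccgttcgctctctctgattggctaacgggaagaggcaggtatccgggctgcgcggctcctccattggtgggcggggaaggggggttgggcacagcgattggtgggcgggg
Clock, chr5:76304793-76305042, minus strand: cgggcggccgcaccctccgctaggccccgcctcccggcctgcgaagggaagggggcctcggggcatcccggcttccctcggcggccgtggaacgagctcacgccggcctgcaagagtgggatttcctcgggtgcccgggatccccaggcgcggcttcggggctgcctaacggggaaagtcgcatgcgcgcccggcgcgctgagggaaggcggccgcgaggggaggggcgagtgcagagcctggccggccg
Npas2, chr1:39194022-39194211, plus strand: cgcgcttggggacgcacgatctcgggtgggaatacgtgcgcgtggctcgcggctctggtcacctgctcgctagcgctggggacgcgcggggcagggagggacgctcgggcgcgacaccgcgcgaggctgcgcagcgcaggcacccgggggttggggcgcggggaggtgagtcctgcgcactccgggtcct
G or C made up 58.8% of the Arntl stretch, 76.4% of the Clock stretch and 75.3% of the Npas2 stretch. Just after the most upstream Arntl start lie 2 matches to AAAGT followed directly by AGGTNA, the RORE form known from this same promoter, so finding it here is no independent result. They are given with 9 bases on each side and the match in capitals, and they begin at bases 37 and 73, where the start is base 1.
First Arntl match, chr7:113207492-113207520, plus strand: attggtcggAAAGTAGGTTAgtggtgcga
Second Arntl match, chr7:113207528-113207556, plus strand: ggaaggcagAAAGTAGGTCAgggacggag
Of 32851 RefSeq windows of 300 bases (250 before and 50 after a start), 20 windows or 0.0609% hold this form on either strand. The shorter receptor core AGGTCA, which overlaps the longer form when its N is C, is in 16.3% of windows, the E-box CACGTG in 7.15% and the D-box TTATGTAA in 0.938%. The Clock window of another annotated start, chr5:76303453-76303752, holds AGGTCA on the opposite strand, at position -119 from that start. The Npas2 window holds no match to these 4 motifs. These are matches of letters, and no binding was measured.

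Totals without albumin (Alb) lay between 12841969 and 13009797 counts per library. The sources used here do not say why the totals are so alike, and counts may have been resampled or scaled before deposit, so these totals are not shown to be the sequencing depth. CPM values are counts per 1000000 of the library total after scaling with TMM factors. The median KO minus WT difference over all genes was -0.0009 on the log2 scale with TMM factors and -0.021 with none. WT_0h replicate 3 held adrenal transcripts (Star at 26.5 CPM against a median of 1.87 over all libraries). KO_0h replicate 2 held pancreatic ones (Cela2a at 69.0 CPM against a median of 0.29), and earlier results of these data set KO_16h replicate 2 apart as well. These 3 libraries are left out in a named alternative below. WT_16h replicate 5 held the immunoglobulin transcript Ighm at 1189 CPM against a median of 8.48, and leaving it out alone changed no call of an activator. The labels give the tissue as liver and the cell type as adipocyte. The adipocyte-defining genes Adipoq, Plin1, Lep and Retn had medians of 0 and at most 0.90 CPM, whereas 5 hepatocyte markers summed to 12228 to 46106 CPM in KO and 15022 to 42570 CPM in WT livers. The summed 6-gene adipocyte list, mostly Cidec and Fabp4, ran from 6.00 to 83.6 CPM in KO and from 8.77 to 50.1 CPM in WT livers. The design text calls the mice male, whereas every library held 3029 to 13969 counts of Xist, and Kdm5d, Uty and Eif2s3y of the Y chromosome had 1 count each over all libraries.

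Arntl, the targeted gene (ENSMUSG00000055116, mm9 chromosome 7, 120350979 to 120457636), was present in all 48 livers and cycled in both genotypes. At 0 h Arntl stood at 36.4, 33.2, 33.1 and 26.8 CPM in KO livers, against 37.8, 43.7, 29.3 and 37.2 CPM in WT livers. At 4 h it stood at 12.6, 10.5, 6.08 and 8.96 CPM in KO livers, against 20.2, 34.1, 12.4 and 17.6 CPM in WT livers. The ranges overlapped at 0 h, and at 4 h only through 1 KO and 1 WT liver that were close to 12.5 CPM. At 8 h the values were 3.48, 6.64, 3.00 and 1.57 CPM in KO livers, against 1.56, 1.80, 3.17 and 2.02 CPM in WT livers. At 12 h they were 1.58, 9.99, 11.5 and 2.25 CPM in KO livers, against 0.818, 1.496, 3.41 and 2.33 CPM in WT livers. The KO livers of 12 h thus fell into 2 near the trough and 2 well above every WT liver of that time. At 16 h Arntl reached 19.2, 36.1 and 23.6 CPM in KO livers, against 13.8, 21.3, 15.2, 15.1 and 15.4 CPM in WT livers. At 20 h it was back at 29.3, 37.0, 32.2 and 30.0 CPM in KO livers, against 33.1, 29.3, 37.1 and 29.6 CPM in WT livers. The counts cover the whole gene and do not isolate the floxed part, and a liver level checks no deletion in fat. In a whole tissue, fewer cells of a type and less RNA per cell cannot be told apart.

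**Figure D1:**
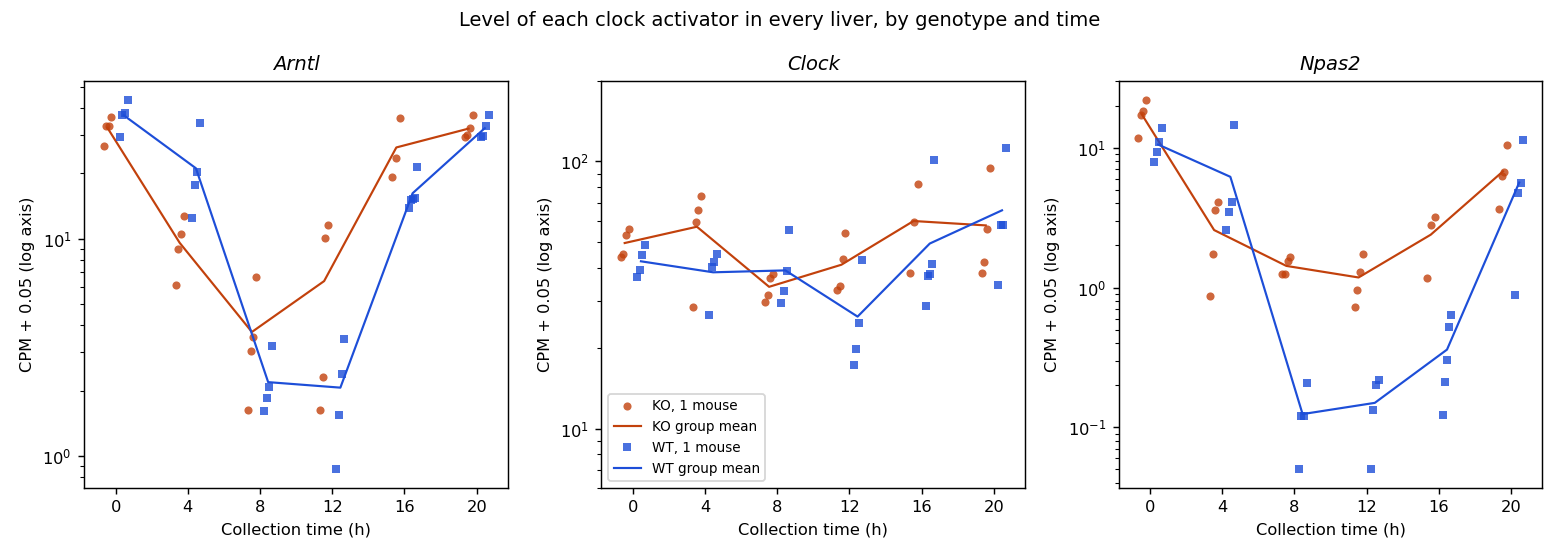
CPM + 0.05 (log axis) of Arntl, Clock and Npas2 against collection time in hours, with 1 point per mouse and lines through the group means, KO as circles and WT as squares. At 8, 12 and 16 h the Npas2 points of KO livers (lowest 0.675 CPM) lie above all WT points (highest 0.586 CPM).

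Averaged over time, the KO minus WT log2 difference of Arntl was 0.30 ± 0.16 (SE) and did not pass the threshold of 0.05 (edgeR's quasi-likelihood test with Benjamini-Hochberg adjustment, adjusted p = 0.347). This test called 191 of 13646 genes, 1.4% of them, and of the 3 activators only Npas2. By time, the Arntl difference was -1.14 ± 0.39 at 4 h (adjusted p = 0.132) and 1.65 ± 0.43 at 12 h (adjusted p = 0.498), both by the same edgeR test. The 4 h difference ranked 566 of 13646 genes by p, in a comparison that had 3175 genes at an unadjusted p under 0.05. The 12 h difference had the 12th lowest p of all genes (unadjusted p = 4.4e-04), in a comparison that called 0 genes and had 600 at an unadjusted p under 0.05 (DESeq2 called 3). These 600 are fewer than a share of 0.05 of the 13646 genes, which chance alone would give on average. Without KO_4h replicate 1, the KO liver highest in Arntl at that time, the 4 h difference passed (edgeR adjusted p = 0.0302), in a comparison that then called 3354 genes instead of 5, or 0.0366%. The genotype by time interaction, an F test of whether the time course differs between genotypes, did not pass for Arntl (edgeR adjusted p = 0.509; unadjusted p = 5.3e-04).

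The shape of the Arntl cycle was examined within each genotype by steps between neighbouring times. In KO livers Arntl fell by 1.76 ± 0.39 on the log2 scale between 0 and 4 h (edgeR adjusted p = 0.0185), a step in which 5.55% of genes passed. That share moved by over 1.5 times without any of 10 libraries, since the step called 758 genes in all, 17 without KO_4h replicate 3 and 3989 without KO_4h replicate 1. It rose by 2.06 ± 0.42 between 12 and 16 h (edgeR adjusted p = 0.0161), where 0.176% of genes passed. In WT livers Arntl fell by 3.29 ± 0.43 between 4 and 8 h (edgeR adjusted p = 1.1e-05), the second lowest p of all genes in a step that called 0.66%. WT Arntl rose by 3.00 ± 0.42 between 12 and 16 h (edgeR adjusted p = 9.4e-05, 0.22% of genes called), again with the second lowest p. The KO rise did not pass without KO_16h replicate 2 (edgeR adjusted p = 0.268), KO_12h replicate 1 (0.106) or KO_12h replicate 4 (0.123), and the KO drop not without KO_0h replicate 1 (0.0650), KO_4h replicate 3 (0.0997) or KO_4h replicate 4 (0.0937). Ranked by mean, the KO levels ran 0, 20, 16, 4, 12 and 8 h, and only the 16 and 4 h neighbours had ranges that did not overlap. The WT order was 0, 20, 4, 16, 8 and 12 h, and only the 16 and 8 h ranges did not overlap. The highest group mean was 8.81 times the lowest in KO and 18.4 times the lowest in WT.

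Npas2 (ENSMUSG00000026077, mm9 chromosome 1, 39250576 to 39420079), which encodes the alternative partner of ARNTL, was higher in KO livers and did not reach the near-zero trough of WT livers. Averaged over the 6 times, the log2 difference was 1.67 ± 0.27 (edgeR adjusted p = 3.7e-04), the eighth lowest p of all genes. In a comparison in which 0.623% of genes were called higher in KO, Npas2 was among the 85 genes so called. Without the 3 libraries set apart it was 1.64 ± 0.28 (edgeR adjusted p = 7.5e-04). Each of the 48 fits with 1 library left out gave a difference between 1.61 and 1.82, with the highest adjusted p at 0.00108.

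Since the WT trough rests on few reads, the deposited Npas2 counts are given for each liver. At 0 h there were 244, 153, 290 and 218 counts in KO livers, against 118, 170, 100 and 153 counts in WT livers. At 4 h there were 52, 44, 10 and 22 counts in KO livers, against 45, 191, 34 and 56 counts in WT livers. Both times showed overlapping groups, and WT_4h replicate 2 stood far above its group. At 8 h KO livers had 17, 18, 22 and 16 counts, against 0, 2, 1 and 1 counts in WT livers. At 12 h KO livers had 12, 15, 21 and 9 counts, against 1, 2, 0 and 2 counts in WT livers. At 16 h KO livers had 15, 36 and 34 counts, against 2, 7, 1, 3 and 6 counts in WT livers. At these 3 times every KO liver was above every WT liver. By 20 h the groups overlapped again, with 133, 88, 47 and 81 counts in KO livers, against 154, 11, 69 and 66 counts in WT livers.

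Non-overlapping ranges with KO on top were found at 8 h for 0.879% of all tested genes, at 12 h for 1.35% and at 16 h for 0.579%, and Npas2 was the only activator among them. At 8 h Npas2 averaged 1.38 ± 0.21 CPM in KO and 0.0742 ± 0.064 CPM in WT livers (SD, n = 4 each). The summed counts were 73 in KO and 4 in WT livers, a ratio per total count of 18.3 with an exact 95% interval of 6.84 to 68.8 that covers counting error of the deposited counts only. At 12 h the sums were 57 in KO and 5 in WT livers (ratio 11.4, 4.60 to 36.4), and at 16 h they were 85 in KO and 19 in WT livers (ratio 7.44, 4.48 to 13.0). The fitted differences were 4.07 ± 0.83 at 8 h, 3.36 ± 0.83 at 12 h and 2.89 ± 0.64 at 16 h on the log2 scale. None of them passed by edgeR's quasi-likelihood test, with adjusted p of 0.236, 0.469 and 0.108, although at 8 h Npas2 had the lowest p of all genes (1.7e-05). At 8 and 12 h this test called 0 of 13646 genes, with 248 and 600 at an unadjusted p under 0.05, and at 16 h it called 3 genes, 0.022%. These 248 and 600 genes, like the 251 at 20 h below, are fewer than a share of 0.05 of all genes, which chance alone would give on average. DESeq2 passed Npas2 at 8 h (4.22, adjusted p = 0.0160) and at 16 h (2.92, adjusted p = 0.00800) and not at 12 h (3.49, adjusted p = 0.0820). At 4 h the difference was -1.28 ± 0.51 (edgeR adjusted p = 0.155), and it passed without KO_4h replicate 1 (adjusted p = 0.0392) and was -0.40 without WT_4h replicate 2. Npas2 ranked 1432 of 13646 genes by p at 4 h, where 3175 genes had an unadjusted p under 0.05 by the edgeR test. Differences at 0 h (0.72 ± 0.48) and 20 h (0.27 ± 0.49) did not pass the edgeR test (both adjusted p = 1.00), which called 0.0147% of genes at 0 h and 0 at 20 h, where 251 had an unadjusted p under 0.05 (DESeq2 called 0).

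**Figure D2:**
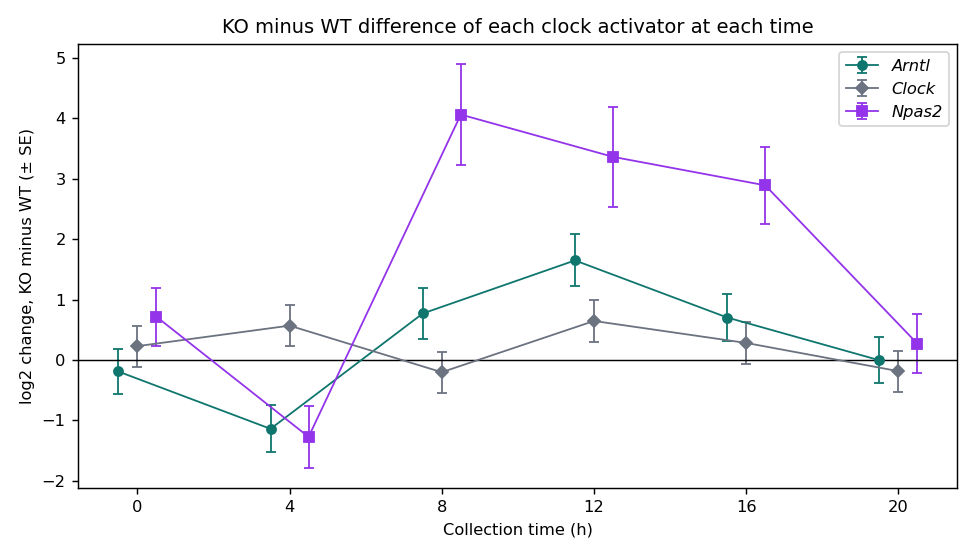
KO minus WT difference on the log2 scale (± SE, edgeR) of Arntl, Clock and Npas2 at each collection time in hours. Npas2 is at -1.28 at 4 h and between 2.89 and 4.07 from 8 to 16 h, Arntl runs from -1.14 at 4 h to 1.65 at 12 h, and Clock stays between -0.20 and 0.64.

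The genotype by time interaction was passed by Npas2 alone of all genes tested, 0.00733% of them (edgeR F test with 5 degrees of freedom, adjusted p = 0.0302). This call was not stable. It was lost without the 3 libraries set apart (adjusted p = 0.110), without both 16 h groups (0.119), and in 17 of 48 fits that left out 1 library (highest adjusted p = 0.123). These libraries were replicates 2, 3 and 4 of KO_4h, 1, 2 and 3 of KO_8h, 2 and 3 of KO_12h, 2 of KO_16h, 2 of WT_4h, 1, 3 and 4 of WT_8h, 1 and 3 of WT_12h, and 1 and 4 of WT_16h. With replicate number as a block it was 0.386. Under DESeq2 it was 1.8e-06, and under the other scalings and filters it lay between 0.0170 and 0.0320.

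Within KO livers, Npas2 fell by 2.76 ± 0.52 on the log2 scale between 0 and 4 h (edgeR adjusted p = 0.00519) and no later step passed. Within WT livers it fell by 6.22 ± 0.77 between 4 and 8 h (edgeR adjusted p = 8.0e-06), the lowest p of any gene in that step. It then rose by 4.15 ± 0.59 between 16 and 20 h (edgeR adjusted p = 1.9e-04), also the lowest p of any gene, in a step in which 0.066% passed. The KO group means ran from 17.3 CPM at 0 h to 1.13 CPM at 12 h, a 15.3-fold range. The WT means ran from 10.5 CPM at 0 h to 0.0742 CPM at 8 h, a 142-fold range whose lower end is 4 counts in 4 livers.

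Clock (ENSMUSG00000029238, mm9 chromosome 5, 76639992 to 76733817), the main partner of ARNTL, showed no difference between genotypes that passed a test, and it varied widely between mice. At 0 h Clock stood at 53.0, 55.9, 43.8 and 45.0 CPM in KO livers, against 39.0, 37.0, 44.5 and 48.4 CPM in WT livers. At 4 h it stood at 28.5, 59.3, 65.9 and 73.9 CPM in KO livers, against 26.6, 44.9, 40.1 and 42.0 CPM in WT livers. At 4 h all KO livers but replicate 1 were above every WT liver, and at 0 h the ranges overlapped more widely. At 8 h the levels were 31.6, 36.5, 37.9 and 29.6 CPM in KO livers, against 29.4, 55.2, 38.9 and 32.6 CPM in WT livers. At 12 h they were 34.0, 43.2, 53.8 and 32.9 CPM in KO livers, against 24.9, 42.8, 17.2 and 19.9 CPM in WT livers, where all but replicate 2 lay below every KO liver. At 16 h Clock had 38.1, 59.2 and 82.1 CPM in KO livers, against 41.2, 101, 38.0, 28.8 and 37.1 CPM in WT livers. At 20 h it had 38.1, 55.7, 94.6 and 41.9 CPM in KO livers, against 57.7, 112, 57.8 and 34.3 CPM in WT livers. Single mice with more than 80 CPM occurred in both genotypes at 16 and 20 h and at no other time.

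The mean KO minus WT difference of Clock was 0.22 ± 0.14 on the log2 scale (edgeR adjusted p = 0.408). The largest by time was 0.64 ± 0.34 at 12 h, and no time passed (edgeR, lowest adjusted p = 0.294, at 4 h). All neighbours in the order of the Clock group means overlapped in both genotypes. The KO means spanned 1.77-fold, from 8 to 16 h. The WT means spanned 2.503-fold, from 26.2 CPM at 12 h to 65.6 CPM at 20 h. No effect of time passed for Clock, with an adjusted p of 0.346 in KO and 0.101 in WT livers by the edgeR F test. The WT effect passed without WT_12h replicate 2 (0.0366), WT_16h replicate 2 (0.0414) or WT_20h replicate 4 (0.0485). For Arntl the same adjusted p was 3.7e-07 in KO and 3.3e-10 in WT, and for Npas2 6.4e-07 in KO and 2.7e-11 in WT livers, in tests that called 9.73% of genes in KO and 8.55% in WT.

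To describe the rhythm itself, a 24 h cosine was fitted to log2 CPM in each genotype. Arntl and Npas2 passed the edgeR rhythm test in both genotypes, which 17% of genes did in KO and 16.3% in WT, and Clock did not (adjusted p = 0.267 in KO and 0.0761 in WT, the second of which became 0.0304 without WT_8h replicate 2). The fitted peak of Arntl was at 20.9 h in KO and 22.2 h in WT livers, a difference of -1.28 h with a 95% interval of -2.42 to -0.14. The Arntl interval is from the least-squares fit. Without the 3 libraries set apart the shift was -1.12 ± 0.60 h (SE), and a 95% interval from this SE would not exclude equal peak times. On linear CPM the shift was -1.84 ± 0.43 h. The fitted peak of Npas2 was at 22.6 h in KO and 23.8 h in WT livers, a difference of -1.18 h (95% interval -2.42 to 0.07). Clock peaked at 21.0 h in KO and 21.4 h in WT livers, with an interval of -4.98 to 4.15 h for the difference.

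Amplitude, the distance from mean to peak on the log2 scale, was 1.81 ± 0.21 in KO and 2.34 ± 0.20 in WT livers for Arntl (SE; difference -0.53, 95% interval -1.12 to 0.06). Npas2 had an amplitude of 1.72 ± 0.23 in KO and 3.12 ± 0.27 in WT livers, a difference of -1.40 with an interval of -2.12 to -0.69. Because WT counts approach 0, this Npas2 value depends on the prior count of 2 added before the log: it was -1.97 with a prior of 0.5 and -0.95 with a prior of 5. Clock amplitudes were 0.29 ± 0.13 in KO and 0.42 ± 0.16 in WT livers. The joint edgeR test of amplitude and phase between genotypes called 1 gene, 0.00733%, which was no activator. Npas2 had the fourth lowest p in it (4.3e-05, adjusted p = 0.146; DESeq2 adjusted p = 0.00177), and Arntl had an adjusted p of 1.00 (unadjusted 0.00276).

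Levels of different genes can be compared only per length, for which the longest coding transcript in GENCODE M21 was used, 9744 bases for Clock, 4236 for Npas2 and 2976 for Arntl. Per kb, the mean Npas2 level was 0.803 of the Clock level in KO and 0.572 in WT livers at 0 h. At 8 h it was 0.0936 of the Clock level in KO and 0.00437 in WT livers. The ratio was 0.0634 in KO and 0.00873 in WT livers at 12 h, and 0.0900 in KO and 0.0145 in WT livers at 16 h. Npas2 was thus nearest to Clock per kb at 0 h in both genotypes, and farthest from it in WT livers at 8 h. With the length of all annotated exons in place of the coding transcript the 0 h ratio was 1.0 in KO and 0.713 in WT livers. Arntl per kb was 10.9 CPM in KO and 12.4 CPM in WT livers at 0 h, against 5.07 CPM in KO and 4.33 CPM in WT livers for Clock. The ratio of Arntl to Clock was thus 2.14 in KO and 2.87 in WT livers at 0 h, and 1.195 in KO and 1.60 in WT livers with all exons. At 16 h the choice of length decided which gene was higher, as this ratio was 1.44 in KO and 1.07 in WT livers by coding transcript and 0.802 in KO and 0.599 in WT livers by all exons. Which transcripts were present was not measured, so ratios between genes carry that uncertainty at all times.

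The other genes of the loop were read from 5 lists, whose rhythmic members are to be read against 17% of all genes in KO and 16.3% in WT livers. Among the nuclear receptors that act on the activator promoters, 3 of 4 genes were tested and none differed in its mean between genotypes (median 0.06 on the log2 scale, against -0.0009 for all genes). Nr1d1, the REV-ERB alpha gene, had a mean log2 difference of -0.69 ± 0.34 (edgeR adjusted p = 0.295). Nr1d2 and Nr1d1 passed the rhythm test in both genotypes. Among 8 repressors of the activator pairs all 8 had negative differences (median -0.45, against -0.0009 for all genes). Those of Per2 (-0.01 ± 0.12), Per3 (-0.08 ± 0.14) and Cry1 (-0.08 ± 0.11) were smaller than their SE. The 8 genes were measured in the same mice, so their signs are not independent, and 2 genes passed. Ciart, which binds ARNTL and represses the pairs, fell by 1.28 ± 0.28 (edgeR adjusted p = 0.0115), and Bhlhe40, which competes for E-boxes, fell by 0.65 ± 0.16 (edgeR adjusted p = 0.0238), in a test that called 0.777% of genes lower. The Bhlhe40 call was lost without KO_16h replicate 3 (adjusted p = 0.0519) and with a replicate block (0.0683). Of the repressors 6 in KO and 5 in WT passed the rhythm test, led by Cry1, Per2 and Per3. Of 7 output genes none passed for the mean difference (median -0.10) and all 7 were rhythmic in both genotypes, led by Tef, Dbp and Usp2. Of 11 enzymes and cofactors of clock proteins none passed for the mean difference (median -0.06), and 3 in KO (Cipc, Fbxl21 and Ep300) and 2 in WT (Cipc and Fbxl21) were rhythmic, of which the WT count is close to the share over all genes. Of 16 other members of the bHLH-PAS family, to which all 3 activators belong, 9 were tested and none passed for the mean difference (median -0.02). Of these 9 genes 5 were rhythmic in KO livers, led by Arnt, Ahr and Ncoa3, and 3 in WT livers, namely Hif3a, Epas1 and Arntl2, the paralog of Arntl. The genes Hif3a and Epas1, which encode hypoxia-inducible factors, passed in both genotypes. No gene of the 5 lists passed the interaction or the rhythm difference.

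Of the list genes, 18 passed the rhythm test in both genotypes, and 15 of them had an earlier fitted peak in KO than in WT livers. Over all genes 1308, or 9.59%, passed in both, and 72.9% of these had an earlier peak in KO, with a median shift of -0.73 h and quartiles at -1.46 and 0.08 h. The shifts of the 18 list genes ran from -2.25 h to 2.08 h with a median of -0.78 h, close to that of all such genes, and the shifts of Arntl and Npas2 lay between those quartiles. The 3 later peaks in KO were those of Hif3a (2.08 h), Epas1 (0.81 h) and Fbxl21 (0.44 h). Hif3a was low, with a fitted mean log2 CPM of -1.48 in KO and -0.97 in WT livers. The interval lay wholly below 0 for Dbp (-1.40 h), Per3 (-0.97 h) and Cry1 (-0.88 h), and wholly above 0 for no gene. All these values come from the same mice, so they are not independent of one another.

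**Figure D3:**
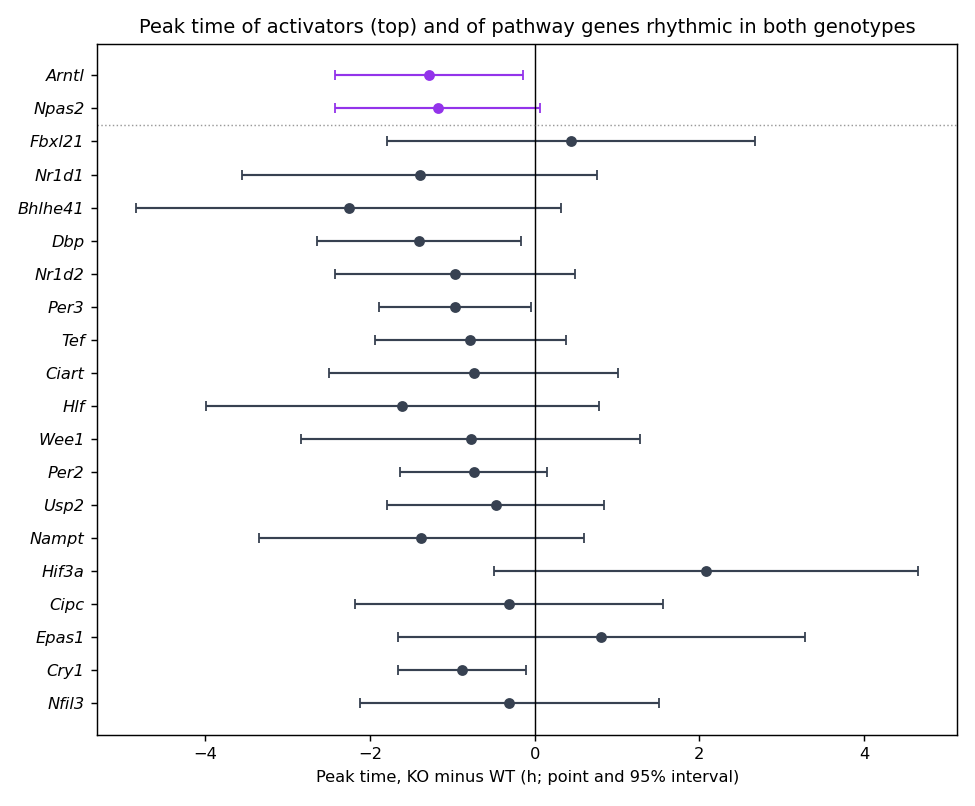
Peak time in KO minus peak time in WT livers in hours (point and 95% interval, from 24 h cosine fits), for Arntl and Npas2 above the dotted line and below it for the 18 list genes rhythmic in both genotypes, in order of WT peak time. Arntl lies at -1.28 h and Npas2 at -1.18 h, and 15 of the 18 list genes are left of 0.

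Genes with the most similar course were ranked by Pearson's r over the 12 group means of log2 CPM, as a description over 12 points that share 48 libraries. The ranking covered 10874 genes that averaged 1 CPM or more, and genes with no symbol or with a predicted-gene name were left out. Clpx, a chaperone of the mitochondrial ClpXP protease, was closest to Arntl (r = 0.993) and also ranked first over the 48 single libraries (0.963). St5, Avpr1a (a vasopressin receptor), Net1 and Chka (choline kinase) followed with r from 0.976 to 0.982. The most opposite genes to Arntl were Hsd3b2, a steroid dehydrogenase, Gtdc1 and Gys2, the liver glycogen synthase (r from -0.944 to -0.958). For Npas2 the closest were Slc45a4, Trmt12, Tnfaip2, Slc16a6 and Tex2 (r from 0.936 to 0.965), and the most opposite Zfp276, Ubxn6 and the sialyltransferase gene St3gal4 (-0.919 to -0.959). For Clock the closest were Hnrnpc and Caprin1, which encode RNA-binding proteins, and Tmem64, Rai14 and Mal2 (r from 0.883 to 0.903). Eef2k, Mobkl2c and the DNA repair gene Brca2 were most opposite to Clock (-0.870 to -0.892). Among the activators r was 0.819 for Arntl and Npas2, 0.751 for Arntl and Clock, and 0.557 for Clock and Npas2. Over single libraries r was smaller in size for all 24 genes named. It was 0.860 to 0.924 for the 4 that follow Clpx and as little as -0.624 for Gtdc1. For Npas2 it was 0.601 for Slc45a4 (rank 182 of 10874) and 0.674 for Trmt12 (rank 79), against 0.804 to 0.856 for the other 3 of the closest and -0.596 to -0.732 for the opposite ones. For Clock it was 0.727 to 0.853 for the closest and -0.554 for Brca2. By likeness to Arntl over group means, Npas2 ranked 300 of 10874 genes.

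Mice of the same group differed, and the deviations of log2 CPM from the group mean were compared between genes in 12 correlations, 6 pairs in each genotype. In KO livers Arntl and Npas2 deviated together (r = 0.501, permutation adjusted p = 0.0192; Spearman's coefficient = 0.549, adjusted p = 0.0686; n = 23), and r was 0.487 without the 2 mice farthest from the median. In WT livers the same r was 0.348 (permutation adjusted p = 0.219; Spearman's coefficient = 0.418, adjusted p = 0.140; n = 25), and 0.570 without 2 mice. With a prior count of 0.5 in place of 2, this r was 0.226 in WT livers (permutation adjusted p = 0.708) and 0.51 in KO livers (permutation adjusted p = 0.02). Clock and Nr1d1 deviated in opposite directions in KO livers (r = -0.699, permutation adjusted p = 0.00972; Spearman's coefficient = -0.685, adjusted p = 0.0107; n = 23) and in WT livers (r = -0.811, permutation adjusted p = 0.00144; Spearman's coefficient = -0.754, adjusted p = 0.00252; n = 25). Without the 2 farthest mice r was -0.619 in KO and -0.720 in WT livers. Such values were not rare among genes: 9.16% of the other 13645 genes in KO and 5.2% in WT livers were at least as opposite to Clock as Nr1d1, and 3.06% in KO and 11.5% in WT livers followed Arntl at least as closely as Npas2. The other 8 correlations had permutation adjusted p of at least 0.498 for r (n = 23 or 25).

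**Figure D4:**
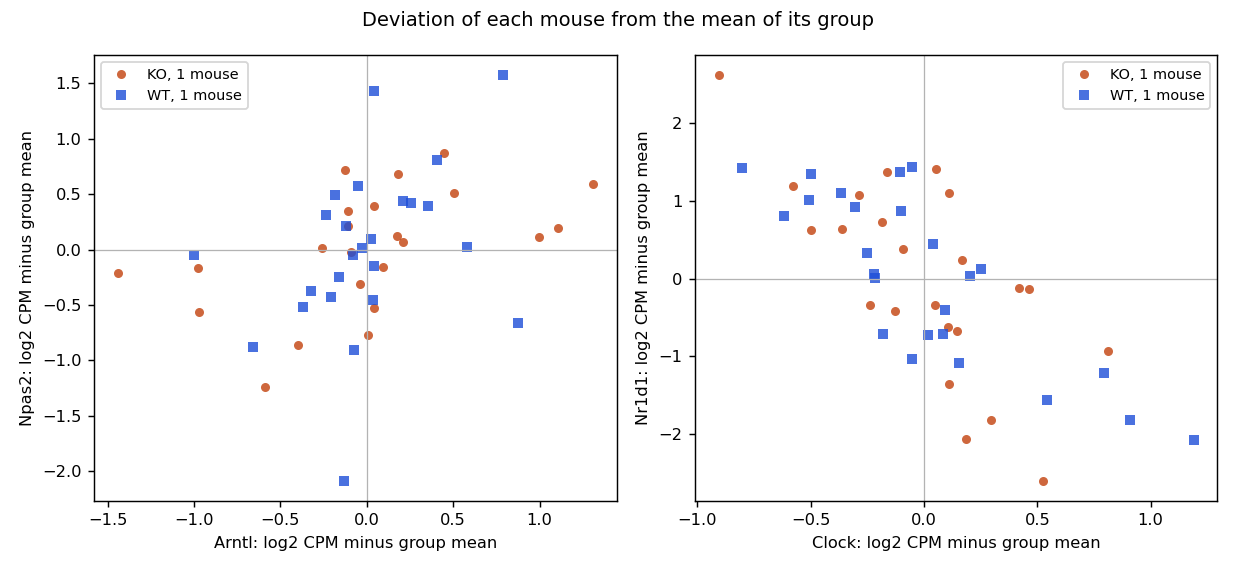
Deviation of each mouse from its group mean (log2 CPM), Npas2 against Arntl on the left and Nr1d1 against Clock on the right, with 23 KO mice as circles and 25 WT mice as squares. The left cloud runs upward with wide scatter (r = 0.501 in KO and 0.348 in WT), and the right cloud runs downward (r = -0.699 in KO and -0.811 in WT).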

How the data were processed

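Liver RNA was sequenced in 48 mice. TruSeq version 2 libraries of poly-A RNA were amplified by PCR and run in pairs on a lane, per the labels' protocols. The authors deposited 1 table of whole-number counts per gene, whose totals are nearly equal for a reason the sources used here do not give. CASAVA, STAR 2.4.1d and mm9 are named, per the submitters' processing notes. The sources used here do not say how reads were assigned to genes or whether strand was used. PCR reads carry no molecular identifiers, and the exact intervals of count ratios cover counting error of the deposited counts only. The intervals of peak time and amplitude rest on the scatter of mice about the fitted curves. The 2 genes of the table that overlap Npas2 had at most 6 counts in a library. Groups, times and replicate numbers came from the labels, and p-values measure the spread between mice.

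Alb was left out, since its values are whole multiples of a unit. Counts were fitted with edgeR 4.0.16 in R 4.3.3 (filterByExpr with minimum count 10 and minimum total 15, TMM scaling, quasi-likelihood F tests on 12 group means, or on a 24 h cosine and sine per genotype), with Benjamini-Hochberg adjustment over 13646 genes and a threshold of 0.05. The SE of a log2 difference was taken from its size and F. Peak times and amplitudes came from least-squares fits to log2 CPM with a prior count of 2, and their intervals from the delta method. Permutation tests shuffled mice within groups 1e+05 times, two-sided. Alternatives were DESeq2 1.42.0, 2 other scalings, 2 other filters, libraries or times left out, a replicate block, other prior counts and a 12 h harmonic. The scripts were tested on simulated data.

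The labels give KO and WT mice of a time the same replicate numbers and do not say what a number marks. The group-centred log2 values of 23 such pairs were correlated over 2000 genes, and 13 pairs exceeded 0.1 (-0.361 to 0.542). All 4 pairs did so at 4 h (0.231 to 0.460), 3 of 4 at 12 h and at 20 h, 2 of 4 at 0 h, 1 of 4 at 8 h and 0 of 3 at 16 h. The main fits used no pairing, whereas the replicate block paired same-numbered mice at every time. The block changed no activator's call at 4 h, where it called 2 genes against 5 without it. The members, lists and rules were chosen with earlier results of these data known. Named genes are the activators in full, per activator the 5 most and 3 least similar genes, and from each list, per described test, at most 3 genes that passed, by lowest p. Beyond the rule, 3 list genes with a later peak in KO were named after their values were seen. Of the list genes absent by symbol, Ciart is listed as Gm129, Cipc as 2310044G17Rik and Adgre1 as Emr1, matched by Ensembl identifier. Values of 1 nuclear receptor gene are not reported here. Lists of endothelial, stellate, bile duct, macrophage and lymphocyte markers held 1 gene past the test for the mean difference, Ighm (log2 difference -1.63, edgeR adjusted p = 0.0488), a call lost without WT_16h replicate 5 (-0.98, edgeR adjusted p = 0.118).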

Additional observations from a re-analysis of the deposited data

Results flagged for a closer look

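In the 11 groups of 4 or 5 mice, each of the 3 genes was checked for a mouse far from the others by Dixon's criterion. Of these 33 sets of values 3 had one, where chance alone gives about 1 in 20, and 2 of the 3 came from 1 liver. WT_16h replicate 2 was high for Arntl, with 21.3 CPM against 13.8 to 15.4 CPM in the other mice of its group. The same liver was high for Clock, with 101 CPM against 28.8 to 41.2 CPM in the others. WT_4h replicate 2 was high for Npas2, with 14.6 CPM against 2.54 to 4.02 CPM in the others, and without it the 4 h difference of Npas2 was -0.40 in place of -1.28 on the log2 scale. The KO minus WT difference of Npas2 changed with time by edgeR's interaction test (adjusted p = 0.0302), from -1.28 at 4 h to 4.07 at 8 h, and this call was lost in the alternatives listed with it above.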

How the results depend on the processing

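For the 3 activators, 517 of 524 values kept their side of the threshold under alternatives that keep or drop whole sets. With 1 library left out, 3566 of 3600 did. No difference that passed in either fit or exceeded its SE changed sign. Smaller differences could, as for Clock at 16 h, which was 0.28 with all libraries and -0.03 without KO_16h replicate 3. The Npas2 mean difference passed in all of these alternatives (lowest 1.43, without both 16 h groups). DESeq2 made Npas2 pass at 8 h (4.22), at 16 h (2.92) and for the rhythm difference (adjusted p = 0.00177). The Npas2 interaction was lost at 0.110 without 3 libraries, 0.119 without both 16 h groups and 0.386 with the replicate block, and the Arntl rise between 12 and 16 h in KO without 3 libraries (1.76, adjusted p = 0.294). The cause was not tested.

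Counts of genes moved more. For the mean over 6 times 191 became 356 with DESeq2, 122 with no filter, 303 without 3 libraries and 127 with the replicate block. At 0 h 2 became 10 with DESeq2 or no filter, 5 with RLE factors or a 1 CPM filter, 8 without 3 libraries, and 0 with the block or 2 groups only. At 4 h 5 became 192 with DESeq2, 2 with no filter or the block, 1 with the 1 CPM filter, 8 without 3 libraries and 0 with 2 groups. DESeq2 called 2 at 8 h, 3 at 12 h (1 with no filter) and 17 at 16 h, where 3 became 0 with unscaled totals, either filter, 3 libraries left out, the block or 2 groups. For the interaction 1 became 7 with DESeq2 and 0 without 3 libraries or with the block, and for the rhythm difference 1 became 5 with DESeq2 and 0 with the block or a 12 h harmonic. The time effect went to 2239 in KO and 1882 in WT with DESeq2, and to 2280 in KO without both 16 h groups. Of the steps, DESeq2 gave 1494 for KO 4 h minus 0 h (474 unscaled, 221 unfiltered), 73 for KO 16 h minus 12 h (1 without 3 libraries), and 193, 94 and 41 for the WT steps at 8, 16 and 20 h. The replicate block changed no other activator call.

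With 1 library left out, Npas2 ranged from -1.60 to -0.40 at 4 h, 3.70 to 4.60 at 8 h and 2.63 to 3.25 at 16 h, and its interaction p from 0.00176 to 0.123. It passed at 8 h without WT_4h or WT_20h replicate 2, and at 16 h without these or KO_16h replicate 1. Arntl ranged from -1.33 to -0.81 at 4 h, from -1.93 to -1.60 for KO 4 h minus 0 h and from 1.73 to 2.52 for KO 16 h minus 12 h. For Clock in WT, p ranged from 0.0366 to 0.267 for time and 0.0304 to 0.243 for rhythm. Counts ranged from 99 to 484 for the mean, 0 to 9 at 0 h, 0 to 3354 at 4 h, 0 to 1 at 8 h, 0 to 2 at 12 h, 0 to 25 at 16 h, 0 to 3 for the interaction, 1 to 2 for the rhythm difference, 17 to 3989 for KO 4 h minus 0 h, 0 to 150 for KO 16 h minus 12 h, 32 to 126, 8 to 61 and 1 to 32 for the WT steps at 8, 16 and 20 h, 810 to 2616 for time in KO and 1629 to 3687 for rhythm in KO. With 0 to 2 deposited Npas2 counts per WT liver at 8 and 12 h, the size of the difference rests on few counts.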
